A study of Mus musculus with 38 samples.

Results

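The 7 genes described here, Ly6a, Anxa1, Anxa3, Clu, Msln, Spp1 and Yap1, were chosen by name as genes of the fetal-like regenerative state of the intestinal epithelium, and all 7 were found among the 46078 genes counted. Expression was measured by RNA sequencing in 38 libraries of C57BL/6 mouse intestinal epithelial cells. KO mice carried a floxed Hk2 allele and Cre recombinase driven by the Villin promoter (Hk2dIEC), so deletion of Hk2, which encodes hexokinase 2, was directed to the intestinal epithelium. WT mice were littermates with floxed Hk2 and no deletion (Hk2fl/fl). Both genotypes were sampled before treatment (day 0, 4 WT and 5 KO) and on day 3 (7 WT and 8 KO) and day 7 (7 WT and 7 KO) of colitis caused by dextran sodium sulfate (DSS), a detergent-like polysaccharide that damages the colonic lining. DSS was given at 1.5% in drinking water to male mice aged 10 to 12 weeks that were co-housed across genotypes. Untreated mice of the study were 9 to 11 or 86 to 92 weeks old, and the labels do not give the age or sex of the day 0 mice. The sample labels name isolated epithelial cells, whereas the series text names colon tissue. The titles give each library its own number, taken here as that of 1 mouse, and p-values measure the spread between these libraries.

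After injury the intestinal epithelium can leave its adult crypt programme for a state that resembles the fetal gut. That state is usually recognised by Ly6a (Sca-1), a GPI-anchored surface protein, together with annexins and clusterin. YAP, encoded by Yap1, is the co-activator at the end of the Hippo kinase cascade, and it drives much of the programme with TEAD transcription factors. Several of these genes are also active outside the epithelium: Spp1 (osteopontin) is made by macrophages, Anxa1 is abundant in neutrophils, Ly6a is carried by T cells and endothelium, and Msln (mesothelin) is a marker of mesothelium. In libraries of mixed cells, more cells of a type and more RNA per cell cannot be told apart.

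Library totals ranged from 10.5 to 60.6 M counts (median 43.2 M). The limit that a count of 0 allows, 3 counts, corresponds to 0.0495 to 0.286 CPM (counts per 1000000 counts of the library) before scaling. All other CPM values were scaled by TMM over all libraries, so this floor is approximate beside them, most so in d0_KO_32 (TMM factor 0.516). Hk2 was at 247 to 439 CPM in WT and 31.2 to 111 CPM in KO on day 0, and at 231 to 598 CPM in WT and 56.6 to 260 CPM in KO on day 7. On day 3 it was at 99.3 to 224 CPM in WT and 70.9 to 131 CPM in 7 KO libraries, whereas the library labelled d3_KO_345 had 440 CPM. The Hk2 level of that library goes against its label, but it is also above all WT libraries of that day. The WT range and that of the other 7 KO libraries overlap on day 3, so Hk2 alone does not settle its genotype. Results that use KO day 3 are given with and without it. Day 0 libraries carry another library prefix than all others, so DSS and library series cannot be told apart wherever day 0 is one side of a comparison. Mitochondrial rRNA took 6.25 to 45.6% of the counts on day 0, highest in d0_KO_32, and 0.352 to 3.95% in DSS libraries. The 8 epithelial markers summed to 8450 to 18600 CPM over all libraries. The 8 neutrophil markers summed to 8.09 to 45.3 CPM in WT and 13.9 to 149 CPM in KO on day 3, and to 146 to 1140 CPM in WT and 120 to 1910 CPM in KO on day 7. One of them, Ly6g, made up 63.2 to 99.4% of that sum in the libraries of days 0 and 3 and 14.1 to 80% on day 7. The other 7 summed to 0.0542 to 1.05 CPM in WT and 0.0825 to 3.04 CPM in KO on day 3, with 35 CPM in the library labelled d3_KO_345, and to 86.8 to 900 CPM in WT and 32 to 1540 CPM in KO on day 7. The 8 macrophage markers summed to 37.8 to 47 CPM in WT and 32.8 to 106 CPM in KO on day 3, and to 71.5 to 264 CPM in WT and 75.5 to 260 CPM in KO on day 7. Of these 8, Cd14 had the highest level. Its medians were 31.2 CPM in WT and 25.7 CPM in KO on day 3, and 67.9 and 86.2 CPM on day 7. The medians of the sum were 39, 38.1, 113 and 171 CPM in the same order.

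In the annotation of the count files, on GRCm38, Ly6a (ENSMUSG00000075602) lies on chromosome 15 at 74994877 to 74998031, Anxa1 (ENSMUSG00000024659) on chromosome 19 at 20373428 to 20390944, and Anxa3 (ENSMUSG00000029484) on chromosome 5 at 96793339 to 96845966. Clu (ENSMUSG00000022037) lies on chromosome 14 at 65968483 to 65981548 and Msln (ENSMUSG00000063011) on chromosome 17 at 25748614 to 25754327. Spp1 (ENSMUSG00000029304) lies on chromosome 5 at 104435118 to 104441050, and Yap1 (ENSMUSG00000053110) on chromosome 9 at 7931999 to 8004596. All 7 are protein coding. Exons of Anxa3, Spp1 and Yap1 overlap those of Gm42603, Gm42793 and Gm20416, and Gm20416 runs antisense to Yap1. Strand was ignored in counting, so reads of such overlapping pairs cannot be told apart.

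RefSeq promoter windows on GRCm38.p6 were matched for 3 of the 7 members: Anxa1 and Spp1, which rose between day 3 and day 7, and Yap1, which did not pass the test. They are shown because the fetal-like programme is described as YAP and TEAD driven. Capitals mark the TEAD motif GGAATG or the TATA motif TATAAA on either strand. The Spp1 window is chr5:104434861-104435110 on the plus strand and the Yap1 window is chr9:8004597-8004846 on the minus strand, each the 250 bases before the start site. The 250 bases before the Anxa1 start lie inside an annotated first exon of another Anxa1 transcript, so only 30 bases around each match are shown, at chr19:20390890-20390919 and chr19:20390686-20390715 on the minus strand.
Spp1: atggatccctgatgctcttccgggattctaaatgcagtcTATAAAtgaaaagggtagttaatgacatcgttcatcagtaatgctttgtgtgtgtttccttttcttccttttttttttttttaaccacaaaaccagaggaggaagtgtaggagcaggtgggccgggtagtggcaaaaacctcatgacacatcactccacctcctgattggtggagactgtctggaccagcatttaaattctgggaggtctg
Yap1: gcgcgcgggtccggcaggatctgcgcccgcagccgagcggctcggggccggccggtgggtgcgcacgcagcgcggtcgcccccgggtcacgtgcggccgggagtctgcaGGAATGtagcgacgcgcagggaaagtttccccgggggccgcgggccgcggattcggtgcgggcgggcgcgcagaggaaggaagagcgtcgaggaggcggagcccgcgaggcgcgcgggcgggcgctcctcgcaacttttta
Anxa1, TEAD motif: actgcactgaacCATTCCtgtgaggaataa
Anxa1, TATA motif: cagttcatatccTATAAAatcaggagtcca
The TEAD motif began 141 bases before the start of Yap1 and 236 bases before that of Anxa1, and it was present in 12.6% of 32817 windows of this length. The TATA motif began 32 bases before the start of Anxa1 and 211 bases before that of Spp1, and it was present in 12.4% of windows. The AP-1 motif TGANTCA, present in 6.75% of windows, had no match in these 3 windows. The 2 motifs matched do not overlap in any of these windows, and a match describes letters only.

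Levels per kilobase of exon set Ly6a and the annexins apart from Clu, Msln and Spp1. On day 7 in WT, Ly6a stood highest at 392.4 ± 125 CPM per kilobase (n = 7, SD), followed by Anxa1 at 120 ± 33.1. Anxa3 was at 36.7 ± 7.24 and Yap1 at 7.21 ± 0.414 CPM per kilobase, with no overlap of any of these 4 with its neighbour in 1 SD. Msln, Spp1 and Clu followed at 2.34 ± 2, 1.9 ± 2.47 and 1.27 ± 0.683 CPM per kilobase, and these 3 overlapped. Clu, a secreted chaperone used as a marker of revival stem cells, was thus near the lower end of the members in the bulk of these preparations.

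**Figure D1:**
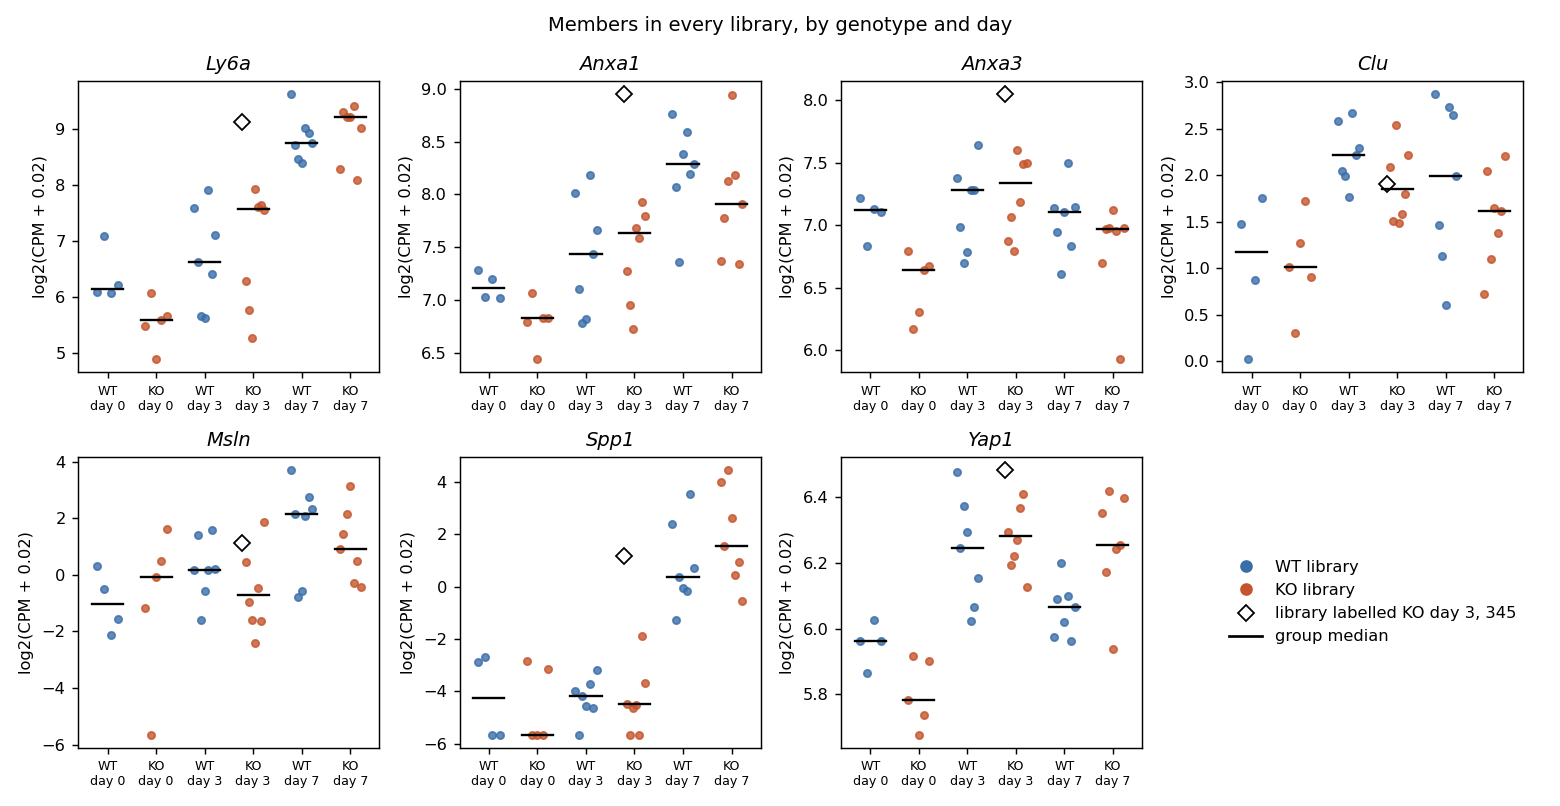
Level of each member as log2(CPM + 0.02) in all 38 libraries, by genotype and day, with a line at the group median. Ly6a and Spp1 sit higher on day 7 than on day 3, and the library labelled d3_KO_345 (open diamond) stands above the other KO day 3 libraries for Ly6a, Anxa1, Anxa3 and Spp1.

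The first comparison asked how the members changed from day 3 to day 7 of DSS within each genotype. In WT, Ly6a, Anxa1 and Spp1 rose, and Anxa3, Clu, Msln and Yap1 did not pass the test (edgeR quasi-likelihood test, Benjamini-Hochberg adjusted p under 0.05). That is 3 of 7 members, against 19.3% of all genes tested in either direction and 10.6% called higher. In KO, Ly6a and Spp1 rose, 2 of 7 members, against 19.3% of all genes in either direction and 10.5% called higher. Over these 7 genes the median log2 fold change was 0.78 in WT and 0.29 in KO, and over all genes tested it was 0.01 and -0.01. Without the library labelled d3_KO_345, Ly6a and Spp1 remained the 2 members that rose in KO, and the median over members was 0.57.

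The share of leukocyte RNA moved with the day. An immune score, the mean log2 CPM of 28 neutrophil, macrophage, T cell and B cell markers, was -1.29 to -0.621 in WT on day 3 and 1.47 to 3.69 on day 7, and -0.786 to 1.06 and 1.34 to 3.23 in KO, so the days did not overlap in either genotype. With this score as a covariate no member passed in either genotype, and 0 genes in WT and 1 in KO passed of all tested. The log2 fold change of Ly6a in WT was then 1.59 (adjusted p 0.393 by edgeR), and that of Spp1 was -0.28. Day and leukocyte share cannot be told apart in these samples.

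Ly6a, the defining surface marker of the fetal-like state, was at 49.2, 97.9 and 241 CPM (lowest, median and highest) in the WT day 3 libraries and at 336, 427 and 783 CPM in the WT day 7 libraries. The day 7 libraries were all above the day 3 libraries, which in this direction held for 2.7% of genes tested. The log2 fold change was 1.97 (SE 0.34, adjusted p 0.000976 by edgeR). In KO, Ly6a was at 38.2, 191 and 553 CPM on day 3 and at 271, 592 and 676 CPM on day 7. The groups overlapped through the library labelled d3_KO_345 alone, since the other 7 KO day 3 libraries reached 244 CPM. The log2 fold change in KO was 1.41 (SE 0.45, adjusted p 0.0373 by edgeR) with that library and 1.85 (SE 0.39, adjusted p 0.00278 by edgeR) without it. The call in KO was lost in 10 of 15 fits that left out 1 library, with adjusted p up to 0.0684 (edgeR), namely those without d3_KO_349, d3_KO_350, d7_KO_367, d7_KO_368, d3_KO_387, d3_KO_388, d3_KO_392, d7_KO_420, d7_KO_421 or d7_KO_423.

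Ly6a on day 3 also differed with the numbers in the titles, which fall into runs. Without d3_KO_345 it was at 38.2 to 191 CPM in the run from d3_WT_346 to d3_WT_353, at 186 to 244 CPM in that from d3_WT_381 to d3_KO_392 and at 84.7 to 137 CPM in d3_WT_486 and d3_WT_487. On day 7 it was at 309 to 783 CPM in the first run (d7_WT_356 to d7_WT_370) and at 336 to 514 CPM in the second (d7_WT_386 and d7_WT_393). Day 7 was therefore above day 3 within each of these 2 runs, in the first only without d3_KO_345 (553 CPM). In the second run the day 7 libraries were all WT and the day 3 libraries mostly KO, so genotype and day are mixed there. Its only WT day 3 library, d3_WT_381, was at 241 CPM. With the run of title numbers as a covariate, chosen after seeing the data, the adjusted p was 0.178 for Ly6a in KO and 0.103 for Anxa1 in WT (edgeR). What the runs stand for is not given in the labels.

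Spp1, a secreted phosphoprotein that binds integrins and CD44, was close to undetected before day 7. It had 0 to 5 counts in every day 3 library but 2 KO libraries, d3_KO_388 with 11 counts and the library labelled d3_KO_345 with 106. On day 7 all 14 libraries had 20 to 1089 counts. In WT this was 0, 0.0361 and 0.0891 CPM (lowest, median and highest) on day 3 and 0.394, 1.26 and 11.6 CPM on day 7, with no overlap. The fitted log2 fold change was 6.3 (SE 0.88, adjusted p 0.000201 by edgeR), a value that depends on the prior count because the day 3 counts are near 0. In KO it was at 0, 0.0245 and 2.23 CPM on day 3 and at 0.657, 2.91 and 22 CPM on day 7, with an overlap due to the library labelled d3_KO_345. The fitted log2 fold change in KO was 4.41 (SE 1.07, adjusted p 0.00767 by edgeR), and 6.94 (SE 1.01, adjusted p 0.000157 by edgeR) without that library.

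Anxa1, a phospholipid-binding protein released during resolution of inflammation, was at 110, 173 and 290 CPM in WT on day 3 and at 164, 312 and 433 CPM on day 7. The groups overlapped, and the log2 fold change was 0.78 (SE 0.24, adjusted p 0.0328 by edgeR). This call held in 8 of 14 fits that left out 1 library, with adjusted p from 0.00891 to 0.0732 (edgeR), and was lost without d3_WT_348, d3_WT_352, d3_WT_353, d7_WT_356, d7_WT_393 or d3_WT_486. In KO it was at 106, 199 and 494 CPM on day 3 and at 162, 241 and 490 CPM on day 7, and the log2 fold change was 0.29 (SE 0.3, adjusted p 0.583 by edgeR). Without the library labelled d3_KO_345 that change was 0.57 (SE 0.25, adjusted p 0.113 by edgeR).

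Msln, a GPI-anchored protein of the fetal-like gene sets, was at 0.307, 1.11 and 2.97 CPM in WT on day 3 and at 0.555, 4.46 and 13 CPM on day 7. Its log2 fold change of 1.81 (SE 0.62) had an edgeR adjusted p of 0.0509, and in KO the log2 fold change was 1.38 (SE 0.67, adjusted p 0.174 by edgeR). In KO it was 1.58 (SE 0.7, adjusted p 0.126 by edgeR) without the library labelled d3_KO_345. DESeq2 placed Msln past the threshold in WT, with an adjusted p of 0.0105. So did edgeR with no filter on low counts, with lane 1 alone and with all 38 libraries in one fit (adjusted p 0.0494, 0.0444 and 0.0438), and 4 of 14 edgeR fits that left out 1 library (d3_WT_348, d7_WT_370, d7_WT_386 or d3_WT_486, lowest adjusted p 0.0184). The 5 mesothelial markers summed to 2.65 to 9.24 CPM in WT on day 3 and 3.68 to 5.53 CPM on day 7, and the highest Wt1 level in a WT day 7 library was 0.61 CPM. The median of the mesothelial sum was 4.9 CPM on day 3 and 3.99 CPM on day 7, of which Upk1b had medians of 3.24 and 2.89 CPM. The median of Muc16 was higher on day 7 (0.627 against 0.494 CPM), and those of Upk1b, Upk3b, Wt1 and Lrrn4 were lower. Which cells carried Msln was not tested.

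The other 3 members, Anxa3, Clu and Yap1, had log2 fold changes below 0 in both genotypes, and none passed. Anxa3, which like Anxa1 binds phospholipids in the presence of calcium, changed by -0.11 (SE 0.15, adjusted p 0.684 by edgeR) in WT and by -0.53 (SE 0.19, adjusted p 0.0664 by edgeR) in KO. In KO Anxa3 passed without d3_KO_349, d3_KO_351 or d7_KO_420 (lowest adjusted p 0.0416 by edgeR) and by DESeq2 (adjusted p 0.038). It also passed with all 38 libraries in one fit (adjusted p 0.0386 by edgeR). Without the library labelled d3_KO_345 the change of Anxa3 in KO was smaller, at -0.4 (SE 0.17, adjusted p 0.111 by edgeR). Clu changed by -0.1 (SE 0.31, adjusted p 0.858 by edgeR) in WT and by -0.33 (SE 0.22, adjusted p 0.353 by edgeR) in KO. Without that library the change of Clu in KO was also -0.33 (SE 0.24, adjusted p 0.351 by edgeR). Yap1 changed by -0.16 (SE 0.08, adjusted p 0.152 by edgeR) in WT, from 75.5 ± 8.58 CPM (n = 7, SD) to 66.7 ± 3.83, and by -0.03 (SE 0.07, adjusted p 0.793 by edgeR) in KO. Without the same library Yap1 changed by -0.01 (SE 0.07, adjusted p 0.959 by edgeR) in KO. Yap1 mRNA therefore stayed within a narrow range, 61.3 to 89.3 CPM in all 29 DSS libraries, and YAP activity is regulated at the protein, which was not measured here.

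**Figure D2:**
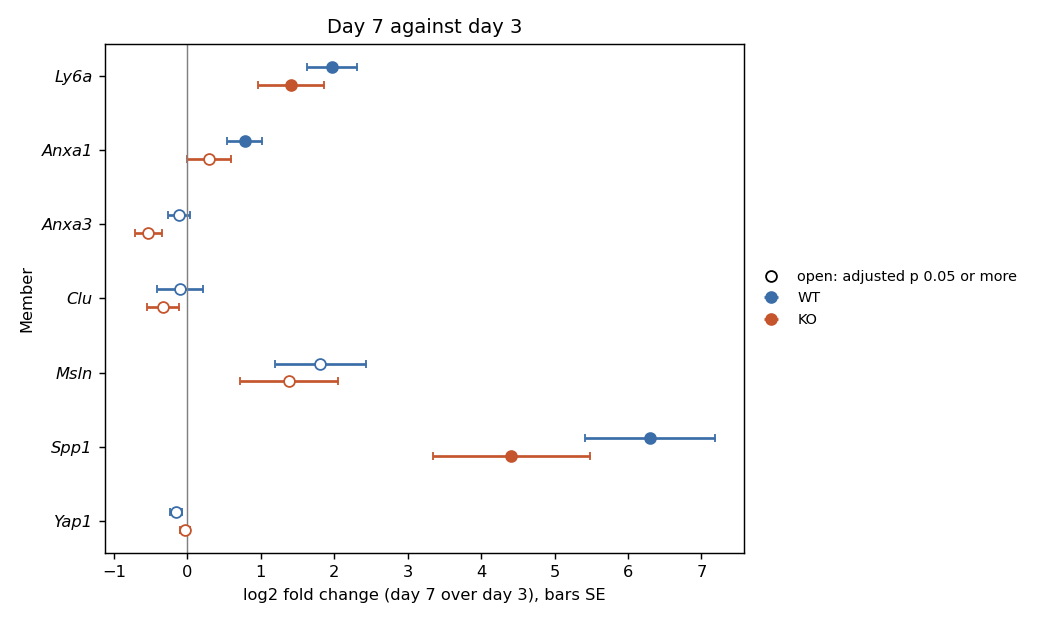
Log2 fold change of each member from day 3 to day 7 in WT (blue) and KO (orange), with SE as bars; filled points passed an edgeR adjusted p of 0.05. Ly6a and Spp1 rose in both genotypes, Anxa1 passed in WT, and Anxa3, Clu, Msln and Yap1 are open in both.

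The change from day 3 to day 7 was compared between genotypes by an interaction term. For none of the 7 members did it pass (adjusted p 1 by edgeR for each), with 0% of all genes called. The largest difference was that of Spp1, at -1.88 on the log2 scale in KO minus WT (SE 1.56), and it was 0.64 without the library labelled d3_KO_345. For Ly6a the difference was -0.54 (SE 0.59), and -0.1 without that library. At unadjusted p under 0.05 the interaction also called no member, the lowest being 0.125 for Anxa3, where 2.69% of all genes were under it.

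The second comparison asked whether deletion of Hk2 altered the members on a given day. Between KO and WT no member passed on day 0, day 3, day 7 or over both DSS days with the day as a covariate (edgeR). All genes called were 0.0335%, 0.00647%, 0.00642% and 0.0122% of those tested in these 4 comparisons. Spp1 was below the filter on low counts on days 0 and 3 and was tested on day 7 and over both DSS days. At an unadjusted p under 0.05 the members were Ly6a, Anxa1 and Anxa3 on day 0, none on day 3, Yap1 on day 7, and Clu, Spp1 and Yap1 over both DSS days. Of all genes tested, 10.5%, 7.88%, 12.9% and 21.5% were under that p in the same order. Over both DSS days without the library labelled d3_KO_345, Clu and Yap1 stayed under it and Spp1 did not (p 0.0833 by edgeR). The count of all genes called over both DSS days rested on single libraries, with 2 genes in all libraries and 555 without d3_WT_346, 470 without d7_KO_420, 135 without d7_WT_419 and 104 without d3_KO_351, and no member among them.

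On day 0, Ly6a was at 67.3, 68, 73.6 and 136 CPM in WT and at 29.7, 44.7, 47.8, 50.7 and 67.2 CPM in KO. The groups did not overlap, by 67.3 against 67.2 CPM, and the log2 fold change was -0.82 (SE 0.24, p 0.00582, adjusted p 0.319 by edgeR). Anxa3 was at 114, 138, 140 and 149 CPM in WT and at 71.8, 79.1, 100, 102 and 111 CPM in KO. These groups did not overlap either, and the log2 fold change was -0.51 (SE 0.13, p 0.00236, adjusted p 0.245 by edgeR). Of all genes tested, 2.41% had KO day 0 libraries all below the WT libraries. DESeq2 gave Anxa3 an adjusted p of 0.0384, so its call differs between the tools. The library d0_KO_32, with the highest share of mitochondrial rRNA, had the highest Ly6a and the lowest Anxa3 level of the KO group. Without it the log2 fold changes were -0.96 (SE 0.24, adjusted p 0.14 by edgeR) for Ly6a and -0.42 (SE 0.11, adjusted p 0.171 by edgeR) for Anxa3.

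The other members on day 0 overlapped between genotypes. Anxa1 was at 130, 131, 147 and 156 CPM in WT and at 87.1, 111, 114, 114 and 134 CPM in KO, and the log2 fold change was -0.3 (SE 0.12, adjusted p 0.412 by edgeR). Yap1 was at 58.3, 62.3, 62.3 and 65.1 CPM in WT and at 51.2, 53.3, 55, 59.7 and 60.4 CPM in KO (log2 fold change -0.12, SE 0.08, adjusted p 0.613 by edgeR). Clu was at 1 to 3.35 CPM in WT and 1.22 to 3.29 CPM in KO, and Msln at 0.21 to 1.23 and 0 to 3.07 CPM. Spp1 had 0 to 3 counts in each day 0 library. Ly6g was at 18.1 to 33.3 CPM in WT and 1.33 to 18.3 CPM in KO on this day, whereas the other 7 neutrophil markers summed to 0.28 to 2.06 CPM in WT and 0.229 to 3.47 CPM in KO. Macrophage markers summed to 30.3 to 38.2 CPM in WT and 23.9 to 28.3 CPM in KO. Cd14, the one with the highest level, was at 21.9 to 28.8 CPM in WT and 17.6 to 24.1 CPM in KO. The genotypes overlapped for Cd14 and for each other macrophage marker. With the immune score as a covariate the log2 fold change of Ly6a was -0.83 and that of Anxa3 -0.47, close to the values without it.

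On day 3, Ly6a was 122 ± 72.6 CPM (n = 7, SD) in WT and 193 ± 164 CPM (n = 8, SD) in KO, and the log2 fold change was 0.66 (SE 0.5, adjusted p 0.696 by edgeR). Without the library labelled d3_KO_345 the KO mean was 142 ± 82.7 CPM and the log2 fold change 0.21 (SE 0.44, adjusted p 0.92 by edgeR). The spread within either genotype was thus larger than the difference between them. Anxa1 had a log2 fold change of 0.24 (SE 0.3, adjusted p 0.802 by edgeR), and of -0.05 (SE 0.24, adjusted p 0.973 by edgeR) without that library. The other members tested had log2 fold changes between -0.33 and 0.19, and between -0.53 and 0.06 without that library.

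On day 7 the genotypes overlapped for every member. Ly6a was 473 ± 151 CPM (n = 7, SD) in WT and 512 ± 159 CPM (n = 7, SD) in KO, and the log2 fold change was 0.11 (SE 0.22, adjusted p 0.845 by edgeR). Spp1 was 3.14 ± 4.07 CPM in WT and 7.31 ± 8.4 CPM in KO (n = 7 each, SD), a log2 fold change of 1.23 (SE 0.84, adjusted p 0.519 by edgeR). For Spp1 the SD was above the mean in both groups, and its log2 fold change was 0.64 without d7_KO_368 and 2.08 without d7_WT_419. Clu, at 4.37 ± 2.35 and 3.03 ± 1.05 CPM, and Msln, at 4.94 ± 4.22 and 2.94 ± 2.84 CPM (n = 7 each, SD), had log2 fold changes of -0.53 (SE 0.34, adjusted p 0.496 by edgeR) and -0.74 (SE 0.66, adjusted p 0.628 by edgeR). Yap1 was at 62.3, 67 and 73.4 CPM in WT and at 61.3, 76.2 and 85.4 CPM in KO, and the log2 fold change was 0.2 (SE 0.07, p 0.0176, adjusted p 0.327 by edgeR).

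**Figure D3:**
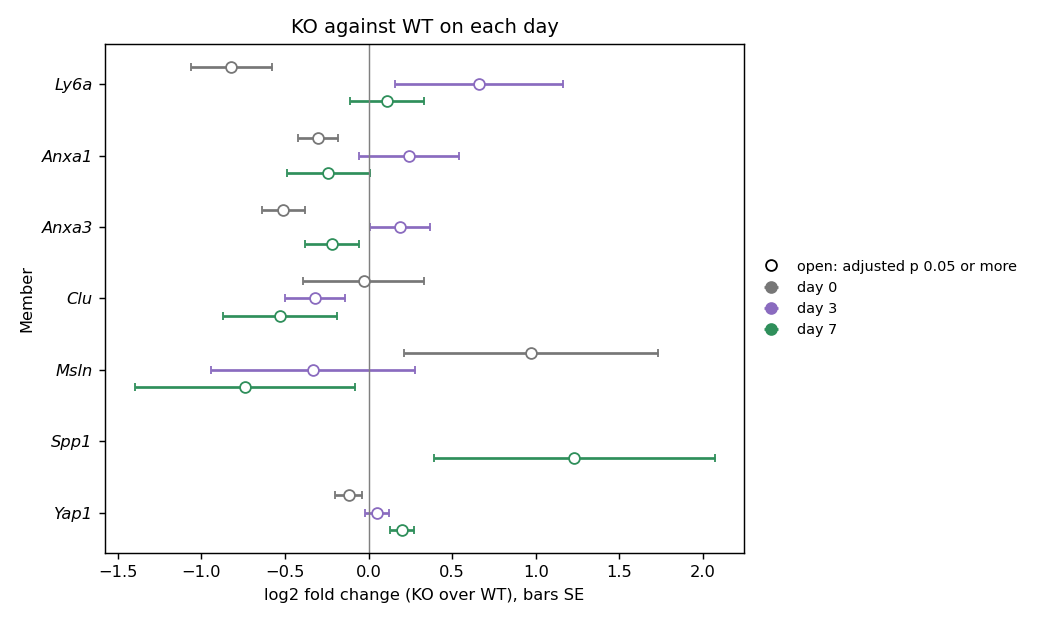
Log2 fold change of each member in KO against WT on day 0 (grey), day 3 (purple) and day 7 (green), with SE as bars; all points are open because none passed an edgeR adjusted p of 0.05. Ly6a, Anxa1 and Anxa3 lie left of 0 on day 0, and Spp1 was tested on day 7 only.

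Against day 0 a large share of all genes was called, and the members' calls are to be read against that share. In WT, 1 of 6 members tested rose by day 3, against 46% of all genes called and 20.4% called higher, and 4 of 7 rose by day 7, against 56.9% called and 27.8% called higher. The day 3 member was Clu, from 2.23 ± 1.04 CPM (n = 4, SD) to 4.75 ± 1.07 CPM (n = 7, SD), a log2 fold change of 0.97 (SE 0.29, adjusted p 0.0148 by edgeR), and the day 7 members were Ly6a, Anxa1, Msln and Spp1. In KO, 5 of 6 members tested rose by day 3, against 46.3% of all genes called and 22.6% called higher, and 4 of 7 rose by day 7, against 54.6% called and 27.3% called higher. Msln was the member tested that did not rise by day 3, and the same 5 were called without the library labelled d3_KO_345. Without single KO day 0 libraries the KO day 3 count was 3 to 4, because Anxa1 was lost without d0_KO_24, d0_KO_53, d0_KO_54 or d0_KO_60 and Clu without d0_KO_24, d0_KO_32 or d0_KO_60 (edgeR adjusted p up to 0.0817). By day 7 Ly6a, Anxa1, Spp1 and Yap1 were called in KO. Ly6a had the largest change with high counts, a log2 fold change of 3.31 in KO (SE 0.28, adjusted p 3.72e-07 by edgeR) and of 2.38 in WT (SE 0.28, adjusted p 1.32e-05 by edgeR), both from day 0 to day 7.

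Other genes of the fetal-like and wound-associated programme were followed in a list of 22 genes beside the members. In WT, 6 of 20 tested rose from day 3 to day 7 and 0 fell, with a median log2 fold change of 0.34, against 10.6% of all genes called higher. Basp1, a membrane-associated growth-cone protein, rose by 2.98 (SE 0.52, adjusted p 0.00101 by edgeR) from 0.259 ± 0.0643 to 2.05 ± 1.84 CPM (n = 7 each, SD). Il33, an alarmin cytokine, rose by 2.19 (SE 0.49, adjusted p 0.00569 by edgeR) in WT and by 2.37 (SE 0.5, adjusted p 0.00311 by edgeR) in KO. In KO 2 of 20 rose and 0 fell, near the 10.5% of all genes called higher, and 7 of 20 rose without the library labelled d3_KO_345, when 22.2% of all genes were called in either direction.

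The Ly6 family, the GPI-anchored proteins to which Ly6a belongs, had 14 genes in the files. In WT 6 of 7 tested rose from day 3 to day 7 and 0 fell, Ly6a included, and in KO 6 of 8 rose and 0 fell. Of all genes, 10.6% and 10.5% were called higher. In KO 7 of 8 rose without the library labelled d3_KO_345, when 22.2% of all genes were called in either direction. Ly6c1 had the largest change, a log2 fold change of 4.04 (SE 0.46, adjusted p 6.07e-05 by edgeR) from 4.44 ± 3.26 to 71.6 ± 34.1 CPM (n = 7 each, SD) in WT. Ly6d rose by 2.79 on the log2 scale (SE 0.64, adjusted p 0.00679 by edgeR). Ly6g, a neutrophil marker that is also in the neutrophil list, rose by 2.77 (SE 0.46, adjusted p 0.000781 by edgeR). Reads of near-identical Ly6 copies could be split between genes or lost, so single Ly6 values are uncertain. Among annexins, 2 of 11 rose and 1 fell in WT, where 19.3% of all genes were called. Beside Anxa1, Anxa5 rose by 0.32 (SE 0.1, adjusted p 0.0296 by edgeR), and Anxa13, an intestinal annexin, fell by 0.86 (SE 0.15, adjusted p 0.000909 by edgeR). In KO, 1 of 11 annexins rose and 1 fell, and 2 rose and 1 fell without the library labelled d3_KO_345, against 19.3% and 22.2% of all genes called.

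Hippo pathway genes were mixed around Yap1. Of 15 tested, 3 rose and 1 fell in WT, and 2 rose and 0 fell in KO (4 rose without the library labelled d3_KO_345), against 19.3% of all genes called in either genotype. The kinase gene Lats2 rose by 0.74 (SE 0.15, adjusted p 0.00319 by edgeR) in WT and 0.55 (SE 0.13, adjusted p 0.00794 by edgeR) in KO. Tead4, a DNA-binding partner of YAP, rose by 0.53 (SE 0.18, adjusted p 0.0463 by edgeR) in WT, the scaffold gene Sav1 rose by 0.17 (SE 0.06, adjusted p 0.048 by edgeR), and Vgll4, a competitor of YAP for TEAD, fell by 0.74 (SE 0.16, adjusted p 0.00409 by edgeR). Of YAP target genes, 2 of 18 rose and 3 fell in WT, and 1 of 19 rose and 1 fell in KO (2 rose and 2 fell without that library). Asap1 rose by 0.57 (SE 0.13, adjusted p 0.0074 by edgeR), and Ptpn14 and Crim1 fell by 1.2 (SE 0.34, adjusted p 0.0222 by edgeR) and 0.42 (SE 0.1, adjusted p 0.00862 by edgeR) on the log2 scale in WT. Lats2 is in both lists. The YAP target list thus had members moving in each direction, with a median of -0.05 in WT and in KO, beside 19.3% of all genes called.

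Among receptors and partners of the secreted members, 10 of 15 tested rose and 0 fell in WT, and 8 of 16 rose and 0 fell in KO, against 10.6% and 10.5% of all genes called higher. In KO 9 of 15 rose without the library labelled d3_KO_345, when 22.2% of all genes were called in either direction. Fpr2, a receptor of annexin A1 carried by neutrophils and macrophages, was at 0.00909 ± 0.0166 CPM on day 3 and 4.99 ± 5.75 CPM on day 7 in WT (n = 7 each, SD, adjusted p 8.16e-05 by edgeR). Fpr1 went from 0.00907 ± 0.0113 to 4.23 ± 5.46 CPM (n = 7 each, SD, adjusted p 0.000123 by edgeR). Itga4, an integrin subunit that binds osteopontin and is carried by leukocytes, rose by 1.62 (SE 0.48, adjusted p 0.0276 by edgeR) in WT and 1.76 (SE 0.22, adjusted p 6.65e-05 by edgeR) in KO. Summed neutrophil and macrophage markers had higher medians on day 7 than on day 3 in the same libraries, and their part in the changes of these receptors was not tested separately.

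Among adult crypt stem cell genes more fell than rose. In WT 1 of 13 rose and 5 fell, with a median log2 fold change of -0.81, and in KO 1 of 13 rose and 2 fell (4 fell without the library labelled d3_KO_345). Of all genes, 19.3% were called in either direction in each genotype, near the share of this list in KO, and 22.2% in KO without that library. Sox9, a crypt transcription factor, fell by 0.9 (SE 0.17, adjusted p 0.00179 by edgeR) in WT, from 89.8 ± 15.4 to 47.5 ± 13.7 CPM (n = 7 each, SD), and by 1.07 (SE 0.2, adjusted p 0.00137 by edgeR) in KO. Znrf3, which removes Wnt receptors, fell by 0.88 (SE 0.18, adjusted p 0.00363 by edgeR) in WT, and Tnfrsf19 fell by 1.64 (SE 0.53, adjusted p 0.0399 by edgeR). Prom1 was the exception that rose, by 0.99 (SE 0.17, adjusted p 0.000848 by edgeR) in WT. Of 12 interferon response genes, 2 rose in WT and 8 in KO from day 3 to day 7, against 10.6% and 10.5% of all genes called higher, and the interaction term called none of them. In KO 9 of these 12 rose without the library labelled d3_KO_345. Gbp5 rose by 2.93 (SE 0.67, adjusted p 0.00683 by edgeR) in WT and 3.25 (SE 0.55, adjusted p 0.000576 by edgeR) in KO, and Tap1, the antigen peptide transporter, by 0.95 (SE 0.3, adjusted p 0.0392 by edgeR) and 1.38 (SE 0.25, adjusted p 0.000874 by edgeR). In none of these lists was a gene called between KO and WT on day 0, 3 or 7 (edgeR).

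Variation between mice of the same day grouped the members. On day 3, over 15 libraries, Ly6a, Anxa1 and Anxa3 varied together. Pearson's r was 0.95 for Ly6a with Anxa1 (rho 0.91, permutation adjusted p 0.00038 for r and 0.00076 for rho, over 114 relations), 0.88 for Ly6a with Anxa3 and 0.89 for Anxa1 with Anxa3. These r were 0.94, 0.83 and 0.83 without the library labelled d3_KO_345, and 0.93, 0.8 and 0.8 without the 2 libraries farthest from the median. Within the run from d3_WT_346 to d3_WT_353, 7 libraries, they were 0.95, 0.85 and 0.88. On day 3 these were 3 of 15 member pairs that passed, and Clu, Msln and Yap1 were in none of them. On day 7, over 14 libraries, 1 of 21 pairs passed for both r and rho, Anxa1 with Anxa3 (r 0.77, rho 0.82, permutation adjusted p 0.00155 and 0.00604; r 0.71 without the 2 farthest libraries). Anxa1 and Yap1 varied inversely and passed for rho alone (r -0.65, rho -0.71, permutation adjusted p 0.0675 and 0.0422; r -0.7 without the 2 farthest libraries).

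The same 3 members varied with markers on day 3. With the summed epithelial markers, r was 0.94 for Ly6a (rho 0.94, permutation adjusted p 0.00038 and 0.00057), 0.94 for Anxa1 (rho 0.97, permutation adjusted p 0.00038 and 0.00057) and 0.84 for Anxa3 (rho 0.82, permutation adjusted p 0.00155 and 0.00604). Without the library labelled d3_KO_345 r was 0.93, 0.94 and 0.8, and in the first run alone, 7 libraries, it was 0.91, 0.97 and 0.89. With Ly6g, which made up nearly all of the neutrophil sum on this day, r was 0.87 for Ly6a, 0.88 for Anxa1 and 0.91 for Anxa3 (rho 0.8, 0.79 and 0.82), and 0.82, 0.82 and 0.87 without the library labelled d3_KO_345. Ly6g belongs to the Ly6 family, whose single values are uncertain. The other 7 neutrophil markers, summed as log2(CPM + 0.1), had r of 0.8, 0.77 and 0.79 with Ly6a, Anxa1 and Anxa3 (rho 0.72, 0.62 and 0.74, permutation adjusted p for rho 0.0115, 0.0411 and 0.0111 over 26 relations), and of 0.71, 0.57 and 0.66 without that library. Their sum in those 14 libraries was at most 3.04 CPM, where 3 counts of a gene correspond to 0.0598 to 0.112 CPM before TMM scaling. Which cells carried the transcripts was not tested. The relations of these members with macrophage markers, r 0.71, 0.77 and 0.74, were 0.63, 0.6 and 0.65 without that library. Cd14 had the highest level in the macrophage sum, and relations without Cd14 were not tested.

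On day 7 Spp1 and Msln were the members that passed with a summed leukocyte marker list for both r and rho. Spp1 had r 0.87 with summed macrophage markers (rho 0.89, permutation adjusted p 0.00152 and 0.00171), 0.86 without the 2 farthest libraries, and 0.84 and 0.97 in the runs from d7_WT_356 to d7_WT_370 and from d7_WT_419 to d7_WT_431, 6 libraries each. Its relation with the macrophage markers other than Cd14 was not tested. Msln had r 0.82 with summed neutrophil markers (rho 0.85, permutation adjusted p 0.00266 and 0.00604), 0.75 without the 2 farthest libraries, and 0.84 and 0.9 in these runs. Without Ly6g in the sum, r was 0.76 for Msln (rho 0.72, permutation adjusted p 0.0037 and 0.0158), and with Ly6g alone it was 0.76 (rho 0.79, permutation adjusted p 0.00673 and 0.00577). With mesothelial markers Msln had r 0.64 on day 3 (rho 0.55, permutation adjusted p 0.0659 and 0.181). That r was 0.61 without the library labelled d3_KO_345 and 0.92 in the first run of day 3, 7 libraries. On day 7 Msln had r 0.34 with mesothelial markers (rho 0.27, permutation adjusted p 0.519 and 0.611), and 0.16 and 0.83 in the runs named above. Anxa1 with neutrophil markers (r 0.71, rho 0.64) and Anxa3 with epithelial markers (r 0.68, rho 0.66) passed for r, with permutation adjusted p of 0.0264 and 0.0261, but not for rho, at 0.0939 and 0.0821. These last relations rest on the 2 farthest libraries, without which r was 0.45 and 0.37. With Ly6g alone Anxa1 had r 0.88 (rho 0.8, permutation adjusted p 0.00039 and 0.00577), and with the other 7 neutrophil markers r 0.56 (rho 0.45, permutation adjusted p 0.0702 and 0.176). Anxa3 (r 0.65, rho 0.7, permutation adjusted p 0.0157 and 0.0205) and Clu (r 0.64, rho 0.63, permutation adjusted p 0.0298 and 0.0458) also passed with Ly6g alone. With the other 7 markers Msln alone passed for both r and rho. Yap1 passed with them for r only (r -0.67, rho -0.56, permutation adjusted p 0.0174 and 0.0747). Ly6a had r 0.46 with epithelial and 0.49 with neutrophil markers on day 7, and neither passed (permutation adjusted p 0.311 and 0.263). With Ly6g alone Ly6a passed for r but not for rho (r 0.69, rho 0.54, permutation adjusted p 0.0173 and 0.0918).

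**Figure D4:**
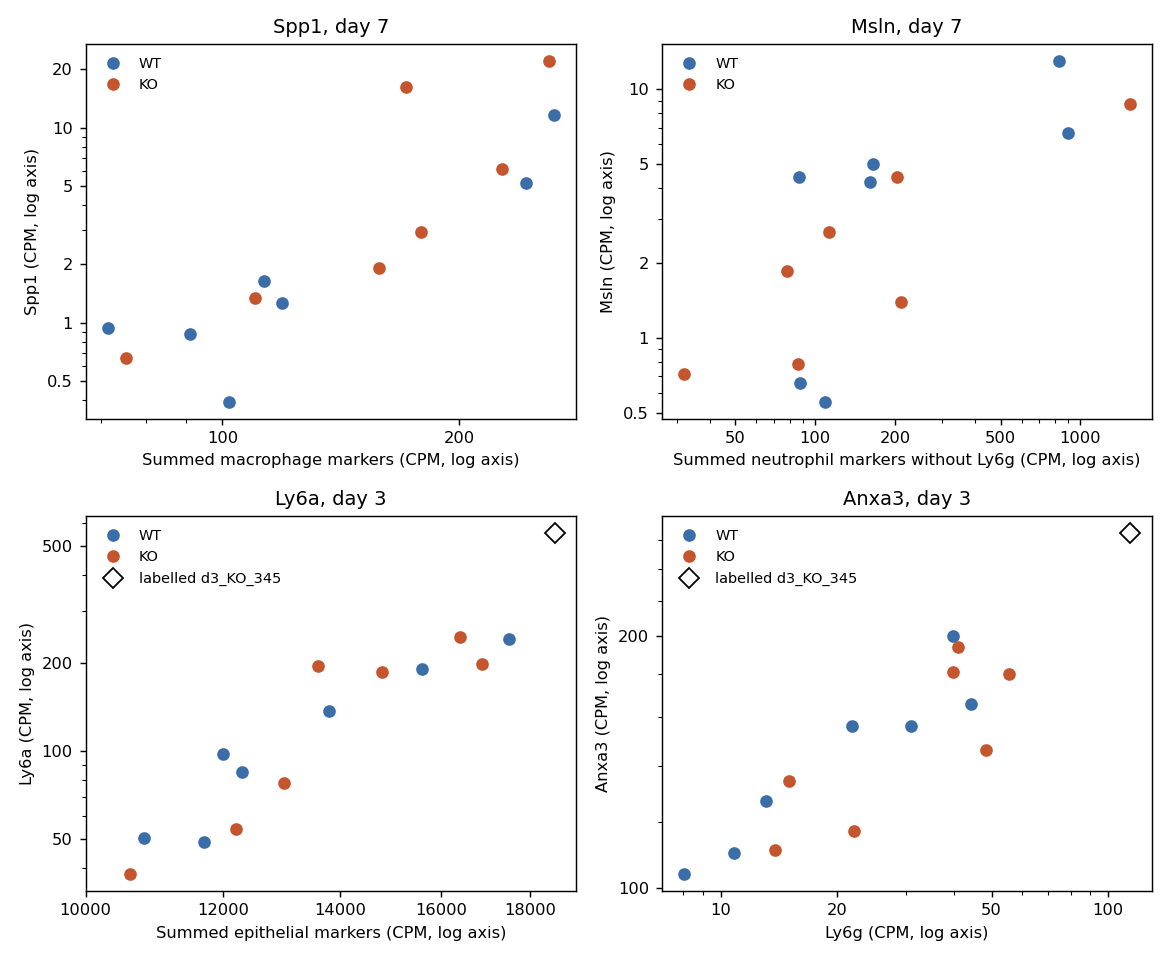
Members against summed marker levels in single libraries, both axes in CPM on log scales: Spp1 with macrophage markers and Msln with 7 neutrophil markers (Ly6g left out) on day 7 (14 libraries), and Ly6a with epithelial markers and Anxa3 with Ly6g on day 3 (15 libraries). Points rise together in all 4 panels, and the library labelled d3_KO_345 (open diamond) lies at the upper end on day 3.

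The genes whose levels were most like each member over the 14 day 7 libraries differed between members, among 12873 genes with a mean of at least 1 CPM. For Ly6a they were Ly6c1, Tinagl1 and Stom, each with r 0.94, and over the 15 day 3 libraries r was 0.94, 0.93 and 0.95. For Anxa1 they were Acot9, Xkr9 and Eif6 (r 0.95, 0.93 and 0.93, and 0.95, 0.7 and 0.91 on day 3). For Anxa3 they were Gsn, Hsf2bp and Dap (r 0.95, 0.9 and 0.88, and 0.79, 0.77 and 0.59 on day 3). Without the library labelled d3_KO_345 these day 3 r ranged from 0.5 (Anxa3 with Dap) to 0.93 (Ly6a with Stom). The likeness of these 3 members to their nearest genes was thus present on both days, and weakest for Anxa3 on day 3. For Msln the nearest were Ngp, itself in the neutrophil list, Plat and Cers3 (r 0.95, 0.95 and 0.93), and on day 3 r was -0.35, -0.11 and 0.4. On day 3 Ngp had a median of 0 CPM in each genotype and reached at most 0.0361 CPM, so its r on that day is limited by the floor. For Spp1 they were Thbd, Ptgs1 and Cfp (r 0.94, 0.94 and 0.93), with Spp1 near 0 on day 3. For Clu they were Il18r1, Naip1 and Bmp3 (r 0.86, 0.86 and 0.83), and for Yap1 2310022A10Rik, Cntnap1 and Cnpy3 (r 0.9, 0.88 and 0.88). The Clu neighbours had r of at most 0.22 on day 3. The genes were picked as the highest of many, so these r are descriptions.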

How the data were processed

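Per the file headers, the authors counted read pairs per gene with featureCounts 1.6.2, with strand ignored and no option set for reads on several places or genes, whereas the submitters' processing notes name Trim Galore, STAR, featureCounts 1.5.2 and GRCm38. Per the labels, a strand-preserving mRNA kit and paired reads of 50 bases were used. The deposited values are raw counts, in 76 files of 2 lanes per library, and lanes were summed here. Libraries were grouped by the genotype and day in the labels. The lowest chi-square per degree of freedom between libraries of a group was 19.9, so none was a repeat of another. Each comparison was fitted on all genes of the groups compared with edgeR 4.0.16 (R 4.3.3, TMM, filterByExpr, quasi-likelihood test, Benjamini-Hochberg adjusted p under 0.05), and SE was taken as the log2 fold change over the root of F. The script was tested on simulated counts. Correlations used log2 CPM (prior count 2) with 100000 permutations of libraries, two-sided, adjusted over 114 relations. DESeq2 1.42.0, other filters, lane 1 alone, marker scores as covariates, a fit of all 38 libraries and leaving out each library (only day 0 libraries and d3_KO_345 where day 0 is compared with later days) were alternatives. Beside the 7 members, up to 3 genes per list and direction were named by the largest change among genes called in WT from day 3 to day 7 with a mean of at least 1 CPM, and 3 genes per member by the highest r on day 7. The members and lists were chosen with earlier results of these data known, and the covariate for runs of title numbers (gaps of at least 10) the fits of lists without d3_KO_345 and the relations with Ly6g and with the other 7 neutrophil markers (adjusted over 26 relations) were added after seeing the data. The floor of 3 counts covers counting error only, whereas SD and SE include the spread between libraries. Marker lists of endothelium (3.03 to 9.59 CPM summed), smooth muscle (7.31 to 20.3), fibroblasts (2.16 to 209), T cells (2.35 to 55.4), B cells (0.443 to 16.4), squamous epithelium (1.36 to 6.34) and small intestine enterocytes (151 to 1210) were summed as well. Promoter windows are from RefSeq, GRCm38.p6.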

Additional observations from a re-analysis of the deposited data

Results flagged for a closer look

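Groups of 4 to 10 libraries were checked for a library whose gap to its nearest neighbour is large against the range of the group, and 7 of 42 groups had one. The limit used corresponds to about 1 in 20 for independent, normally distributed values. CPM values need not be so distributed, and several of the flags share the library labelled d3_KO_345, so the count cannot be set against that rate. The library labelled d3_KO_345 stood apart for Ly6a (553 CPM, next 244), Anxa1 (494 CPM, next 243) and Spp1 (2.23 CPM, next 0.253), and its Hk2 level goes against its label. In WT on day 7, d7_WT_356 had 783 CPM of Ly6a (next 514) and d7_WT_419 had 11.6 CPM of Spp1 (next 5.23). In KO on day 7, d7_KO_420 had 490 CPM of Anxa1 (next 291), and in WT on day 0, d0_WT_41 had 136 CPM of Ly6a (next 73.6). Each of these values is the highest of its group.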

How the results depend on the processing

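Of 1668 values of single members under the alternatives, 1564 kept their direction and side of the threshold, 38 fell below it, 16 passed it and 50 changed sign. The count of members called stayed at 0 between KO and WT on days 3 and 7, over both DSS days and in the interaction under every alternative run. It was 1 on day 0 by DESeq2's Wald test (Anxa3). With the immune score as a covariate it was 0 for day 7 against day 3 in WT and KO and for WT day 7 against day 0, and 1 for KO day 3 and KO day 7 against day 0. For KO day 7 against day 3 it was 1 with the run of title numbers as covariate and 1 to 3 without single libraries. For WT day 3 against day 0 it was 2 with all 38 libraries in one fit and 0 where the log2 fold change had to reach 1 in size, under which KO day 3 against day 0 gave 1, and the latter ranged from 3 to 5 without single libraries. With the immune score, signs changed as follows. Between KO and WT, Clu was 0.02 on day 0, and on day 3 Ly6a was -0.22, Anxa1 -0.25, Anxa3 -0.05 and Yap1 -0.03. For day 7 against day 3 in WT, Anxa3 was 0.38, Msln -1.75 and Spp1 -0.28, and in KO Ly6a was -0.24, Anxa1 -1.24, Clu 0.03, Msln -3.29 and Spp1 -1.10. Against day 0 on day 7, WT Anxa3 was 0.12, Clu -1.49, Msln -0.98 and Spp1 -1.57, and KO Anxa3 was -0.41 and Msln -5.49. In the interaction Msln was 0.33 and Spp1 1.27. With a stromal score Msln was -0.46 between KO and WT on day 0. With the run of title numbers, Anxa3 over both DSS days was 0.05 and Yap1 in KO day 7 against day 3 was 0.02. In WT day 3 against day 0, Anxa3 was -0.02 with DESeq2's size factors and -0.02 by its Wald test, -0.07 with a mean CPM of at least 1 and -0.03 with lane 1 alone. In WT day 7 against day 0, Anxa3 was 0.01 with no filter, and Yap1 -0.05 with a mean CPM of at least 1 and -0.03 with lane 1 alone. Without single libraries, sign changes gave ranges of -0.27 to 0.26 for Clu between KO and WT on day 0, -0.05 to 0.39 for Anxa1 on day 3, -0.08 to 0.04 for Anxa3 over both DSS days, -0.27 to 0.04 for Clu in WT day 7 against day 3 and -0.07 to 0.01 for Yap1 in KO. Against day 0 they were -0.04 to 0.09 for Anxa3 in WT day 3 and -0.38 to 0.58 for Msln in KO day 3, and in the interaction -0.99 to 0.11 for Msln and -2.47 to 0.64 for Spp1. Of all genes, 5 were called between KO and WT on day 0, 175 by DESeq2, 52 with no filter, 0 with the immune score and 0 to 37 without single libraries. On day 3, 1 gene was called, 2 by DESeq2 and 0 to 1 without single libraries, and on day 7, 1 gene, 89 by DESeq2, 38 with all 38 libraries in one fit and 1 to 2 without single libraries. Over both DSS days it was 2 genes, 566 by DESeq2, 175 with the stromal score, 159 with all 38 libraries in one fit and 1 to 555 without single libraries. With a mean CPM of at least 1 it was 0 on day 3, on day 7 and over both. From day 3 to day 7 in WT, 3002 genes were called, 0 with the immune score, 1556 with the run of title numbers and 1319 where the log2 fold change had to reach 1, and in KO 3008, where these gave 1, 2208 and 1261. For WT day 3, WT day 7, KO day 3 and KO day 7 against day 0 the last gave 3453, 4931, 2434 and 3947, against 7893, 9919, 7409 and 8938, and the immune score gave 1254 on day 7 in WT and 467 in KO. For the other values the cause was not tested. No paired analysis was possible because no groups share replicate numbers. Spp1, and Msln in libraries with few counts, are limited by depth on days 0 and 3. Clu had as few as 11 counts on day 0, and 85 to 281 counts on day 3.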
